A study of Mus musculus with 18 samples.

Results

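Classical and related cadherins that mark epithelium, mesenchyme or muscle were followed in mouse liver tumors driven by activated AKT and a mutant YAP. They were taken by gene symbol as Cdh1, Cdh2, Cdh3, Cdh6, Cdh11, Cdh13, Cdh15 and Cdh17, and all 8 were found among the 43346 genes of the tumor count table. All 8 also passed the filter on low counts that left 18318 genes for testing. The set was chosen by values of these same tumors, with the differences between YAP-SY and YAP-S tumors known, so those differences are given as a description of the members.

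Cadherins are cell surface proteins that bind like partners on neighbouring cells in the presence of calcium. Inside the cell, classical cadherins hold p120-catenin and beta-catenin, and alpha-catenin links these to actin at the adherens junction. E-cadherin (Cdh1) and N-cadherin (Cdh2) are both present on normal hepatocytes, bile duct epithelium carries E-cadherin, and a shift towards N-cadherin and mesenchymal cadherins is a textbook mark of epithelial-mesenchymal transition. YAP is the transcriptional coactivator of the Hippo pathway, whose activity depends on how cells contact each other, and adherens junction proteins are among its upstream regulators.

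One model carried myr-AKT, a membrane-bound active AKT, together with YAP S127A/Y357F (YAP-SY), and the other carried myr-AKT with YAP S127A (YAP-S). Both YAP forms thus share S127A, the loss of an inhibitory serine phosphorylation site, and myr-AKT was common to all 12 tumors. By the genotype labels, 3 YAP-SY tumors were CCA (cholangiocarcinoma; tumors 1, 6 and 8), 3 YAP-S tumors were CCA (3, 4 and 5), 3 YAP-SY tumors were mixed (3, 5 and 9) and 3 YAP-S tumors were mixed (2, 7 and 9). SB1, a cell line with the genotype label of YAP-S CCA, gave 3 further samples. RNA came from tumor nodules or cultured cells, and libraries were made with an mRNA kit. The strain, age and sex of the mice and the promoters of the plasmids are not given in the sources used here. Nothing in the labels says that tumors of a group came from separate animals, so p-values measure the spread between these tumors.

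Tumor libraries held 30656499 to 130035221 counts and SB1 libraries 25341968 to 30541185. Counts were present for 18207 genes in YAP-SY CCA tumor 1 and for 20440 to 24391 genes in each of the other 11. The species of the plasmids' YAP and AKT is not given in the sources used here. Yap1 RNA lay between 73.6 and 114 CPM (counts scaled to a common library size) in all 12 tumors and does not check the labels. Among CCA tumors Akt1 RNA was at 199, 105 and 276 CPM with YAP-SY, against 744, 482.5 and 834 CPM with YAP-S, without overlap. In mixed tumors Akt1 was at 416, 520.3 and 380 CPM with YAP-SY, against 384, 931 and 256 CPM with YAP-S, with overlap. The part of Akt1 in the cadherin differences was not tested. The summed level of 10 hepatocyte markers was 141900 to 163900 CPM in YAP-SY CCA tumors, against 49360 to 61940 CPM in YAP-S CCA tumors, and the summed level of 10 cholangiocyte markers was 2763 to 4188 CPM with YAP-SY and 7294 to 10780 CPM with YAP-S. All 10 hepatocyte markers had counts in every group labelled CCA. In bulk tissue, fewer cells of a type and less RNA per cell cannot be told apart, and this holds for every level below.

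In CCA tumors all 8 cadherins differed between YAP-SY and YAP-S tumors, 7 lower and 1 higher, by edgeR's quasi-likelihood test with an adjusted p under 0.05 over all tested genes. Of all 18318 genes, 39.1% passed the same test in either direction, 20.8% lower and 18.3% higher. Cdh17, Cdh15 and Cdh11 had the largest falls, Cdh6, Cdh3 and Cdh13 intermediate ones and Cdh1 the smallest, while Cdh2 rose under TMM scaling (log2 fold change 0.47) but not with library size alone (-0.09). In mixed tumors none of the 8 passed. The members' median log2 fold change in CCA tumors was -1.97, against -0.001 over all tested genes. The 3 tumors of each model did not overlap for any of the 8, a separation that 52.6% of all genes showed; since the genes were chosen with this contrast known, nothing is read from either count.

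**Figure D1:**
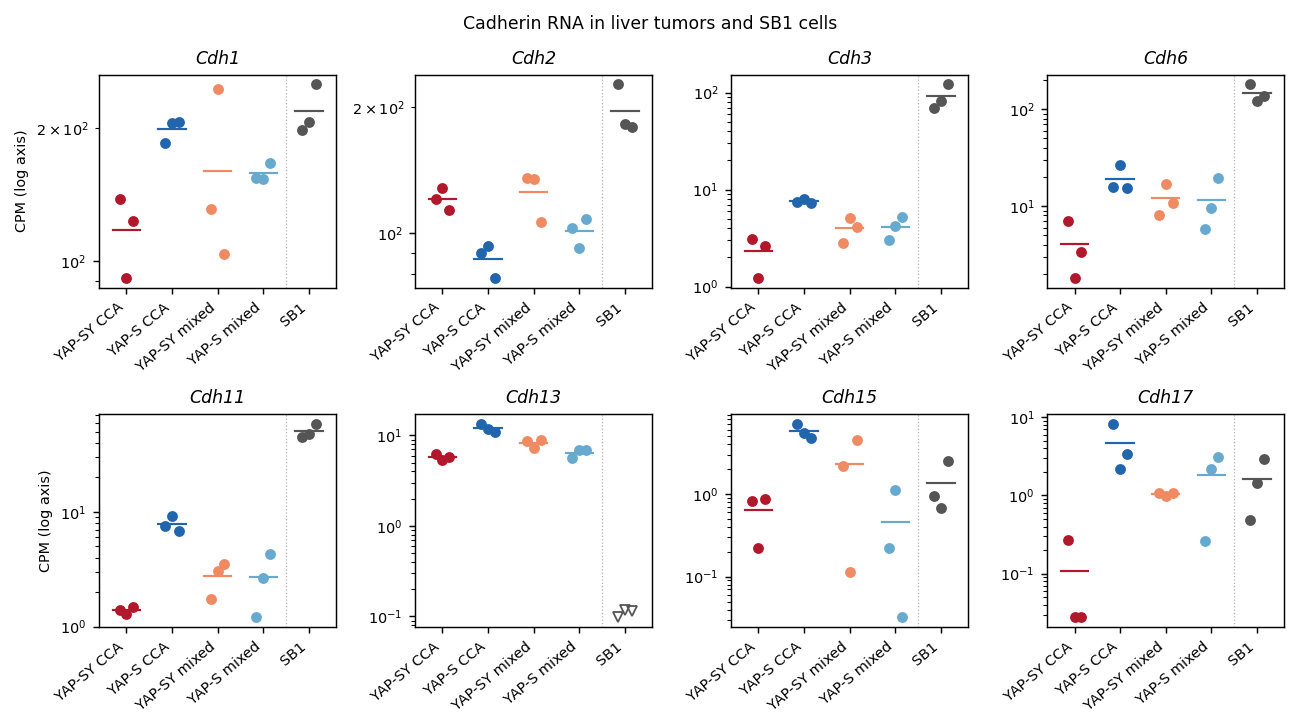
Levels of 8 cadherin RNAs in CPM on a log axis, by group; each point is 1 tumor or SB1 sample, each line a group mean, and open triangles for Cdh13 in SB1 stand at the limit that a count of 0 allows. YAP-SY CCA tumors lie below YAP-S CCA tumors for every gene except Cdh2, and SB1 values, scaled in a table of their own, lie right of the dotted line.

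Among the epithelial cadherins, Cdh1 encodes E-cadherin, the main cadherin of epithelial adherens junctions. In YAP-SY CCA tumors 1, 6 and 8 its level was 138, 91.7 and 123 CPM, against 185, 205 and 207 CPM in tumors 3, 4 and 5 of YAP-S CCA. In mixed tumors Cdh1 was at 131, 245 and 104 CPM with YAP-SY (tumors 3, 5 and 9), against 154.5, 153 and 166 CPM with YAP-S (tumors 2, 7 and 9). The CCA groups were thus separate, whereas YAP-SY mixed tumors spanned the whole range of the YAP-S mixed tumors and tumor 5 held the highest Cdh1 of all 12. Cdh1 was lower in YAP-SY CCA tumors by 1.69 times, a log2 fold change of -0.76 with an SE of 0.257 (adjusted p = 0.0349 in edgeR). This call was lost in 5 of the 6 fits that left out 1 CCA tumor (log2 fold change -0.88 to -0.61, adjusted p up to 0.123) and remained without YAP-SY CCA tumor 1 alone.

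Cdh3 encodes P-cadherin, a classical cadherin of basal epithelia that lies beside Cdh1 on chromosome 8. YAP-SY CCA tumors had 3.10, 1.23 and 2.62 CPM, against 7.51, 8.08 and 7.21 CPM in YAP-S CCA tumors. YAP-S CCA tumors stood above every other tumor, YAP-S mixed tumors included, which had 3.01, 4.20 and 5.18 CPM beside 2.83, 5.10 and 4.11 CPM in YAP-SY mixed tumors. The log2 fold change in CCA tumors was -1.71 (SE 0.326, adjusted p = 0.00193), 3.27 times lower, and it held in each of the 6 fits without 1 CCA tumor.

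Cdh17 encodes LI-cadherin, named for liver and intestine in the rat, which has a short cytoplasmic tail that does not bind catenins. YAP-SY CCA tumors 1, 6 and 8 had 0.272, 0.028 and 0.028 CPM, from 12, 1 and 1 counts, against 8.31, 2.18 and 3.39 CPM for tumors 3, 4 and 5 of YAP-S CCA, from 823, 187 and 145 counts. In mixed tumors it was at 1.06, 0.971 and 1.09 CPM with YAP-SY, against 0.262, 2.18 and 3.08 CPM with YAP-S. The YAP-SY CCA tumors held next to no Cdh17 RNA, and in YAP-S mixed tumors the level varied 11.7-fold between the lowest and the highest. The log2 fold change in CCA tumors was -5.29 (SE 0.974, adjusted p = 0.0013); its size rests on the few counts of the YAP-SY tumors, and without YAP-SY CCA tumor 1 it was -7.28. In limma-voom with sample quality weights the call was lost (-6.22, adjusted p = 0.0528). Of the 6 markers of intestinal epithelium, Sis was at 0 in every CCA tumor and Cdx2 in every tumor. Vil1, Muc2 and Lgr5 did not pass the test in CCA tumors, where Lgr5 averaged 9.04 CPM with YAP-SY and 6.84 CPM with YAP-S. Fabp2, which hepatocytes can also express, averaged 81.0 CPM in YAP-SY CCA tumors and 28.4 CPM in YAP-S CCA tumors.

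Cdh2 encodes N-cadherin, which hepatocytes, mesenchymal cells and neurons carry. YAP-SY CCA tumors held 121, 129 and 114 CPM, against 89.7, 93.3 and 78.4 CPM in YAP-S CCA tumors. In mixed tumors it was at 135, 135 and 106 CPM with YAP-SY, against 103, 92.2 and 108 CPM with YAP-S. All 3 YAP-SY CCA tumors were above all 6 YAP-S tumors of both histologies, while the mixed groups overlapped through YAP-SY mixed tumor 9. Cdh2 rose 1.39-fold in YAP-SY CCA tumors, a log2 fold change of 0.47 with an SE of 0.132 (adjusted p = 0.0137). The rise depended on the scaling of the libraries. With library size alone in place of TMM (trimmed mean of M values) the log2 fold change was -0.09, and the median of all genes moved to -0.56. Scaling moves all genes by nearly the same amount, so the place of Cdh2 above that median is no separate check. Without YAP-S CCA tumor 5 it was 0.39 and no longer passed (adjusted p = 0.0792).

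The hepatocyte marker sum was highest in YAP-SY CCA tumors and lowest in YAP-S CCA tumors. By mean level Cdh2 too was lowest in YAP-S CCA tumors, but it was highest in YAP-SY mixed tumors. These had 125.5 CPM, against 120.9 CPM in YAP-SY CCA tumors, with overlapping ranges. Over the 12 tumors, log2 CPM of Cdh2 correlated with the log2 hepatocyte marker sum by r = 0.79 and with the fibroblast and stellate marker sum by -0.81. Cdh2 also had 0.77 with the intestinal epithelium marker sum and -0.72 with the smooth muscle marker sum. For Cdh1 the values were -0.76 with the hepatocyte sum and 0.84 with the cholangiocyte sum, which was mostly Spp1. Cdh1 was as close to the sums of leukocyte markers (0.84), Schwann cell markers (0.83) and intestinal epithelium markers (-0.80). Its correlation was thus not particular to the cholangiocyte sum. These are descriptions over 12 tumors that share their groups and scaling, and the part of tissue make-up in the Cdh1 and Cdh2 differences was not tested.

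Cdh6 and Cdh11 are type II cadherins. Cdh6, or K-cadherin, is found in embryonic kidney and other developing epithelia. Its levels were 6.98, 1.82 and 3.39 CPM in YAP-SY CCA, against 15.8, 26.3 and 15.4 CPM in YAP-S CCA. In mixed tumors it was at 8.18, 16.9 and 10.9 CPM with YAP-SY, against 5.85, 9.57 and 19.4 CPM with YAP-S, and both mixed groups reached into the range of the YAP-S CCA tumors. In CCA tumors Cdh6 was 4.69 times lower under YAP-SY, at -2.23 on the log2 scale (SE 0.493, adjusted p = 0.00476).

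Cdh11 encodes OB-cadherin, a cadherin of osteoblasts, fibroblasts and activated stellate cells. YAP-SY CCA tumors had 1.40, 1.29 and 1.47 CPM, against 7.53, 9.30 and 6.86 CPM in YAP-S CCA tumors. The YAP-SY values were within 1.15-fold of each other, and all YAP-S CCA tumors lay above the other 9 tumors, since mixed tumors had 1.73, 3.04 and 3.52 CPM with YAP-SY and 1.21, 2.64 and 4.31 CPM with YAP-S. The fall in YAP-SY CCA tumors was 5.68-fold (log2 fold change -2.51, SE 0.386, adjusted p = 0.000652), and it kept its call in each of the 6 fits without 1 CCA tumor, from -2.61 to -2.37. Markers of fibroblasts and stellate cells moved the same way. Their summed level (11 genes) was 488 to 661.5 CPM in YAP-SY CCA tumors, against 1997 to 2497 CPM in YAP-S CCA tumors, and 9 of the 11 were called lower. Col1a1 averaged 26.2 CPM with YAP-SY and 286 CPM with YAP-S, and Acta2 11.8 CPM with YAP-SY and 74.0 CPM with YAP-S. The 2 that did not pass were Dcn and the quiescent stellate cell gene Lrat. Dcn averaged 177 CPM with YAP-SY and 203.5 CPM with YAP-S (log2 fold change -0.20), and Lrat 27.3 CPM with YAP-SY and 20.5 CPM with YAP-S. Cdh11 correlated with that marker sum by r = 0.93 over the 12 tumors. It also correlated with the smooth muscle marker sum by 0.89 and with the hepatocyte marker sum by -0.84. For the other cadherins that fell, r with the fibroblast and stellate sum ran from 0.52 (Cdh15) to 0.89 (Cdh3), so this trait was not particular to Cdh11. The part of fibroblasts in the Cdh11 difference was not tested.

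Cdh13 encodes T-cadherin, which is tied to the membrane by a lipid anchor, lacks a cytoplasmic domain and binds adiponectin. YAP-SY CCA tumors had 6.28, 5.34 and 5.76 CPM, against 13.6, 11.7 and 10.98 CPM in YAP-S CCA tumors. Mixed tumors had 8.58, 7.24 and 8.88 CPM with YAP-SY, against 5.65, 6.84 and 6.96 CPM with YAP-S, so that the order of the models was opposite in the mixed tumors and both pairs of groups were separate. In CCA tumors Cdh13 was 2.08 times lower under YAP-SY, at -1.06 on the log2 scale (SE 0.167, adjusted p = 0.000622), with -1.13 to -0.98 in the 6 fits without 1 CCA tumor. It had the smallest spread within groups of the 7 cadherins that fell, with the highest tumor of a group at most 1.24 times the lowest.

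Cdh15 encodes M-cadherin, the cadherin of muscle precursor cells. Its levels were 0.816, 0.224 and 0.862 CPM in YAP-SY CCA tumors, from 36, 8 and 31 counts, against 7.12, 5.41 and 4.80 CPM in YAP-S CCA tumors, from 705, 465 and 205 counts. In mixed tumors it was at 2.16, 0.114 and 4.55 CPM with YAP-SY, against 0.222, 1.12 and 0.032 CPM with YAP-S. The YAP-S CCA tumors stood above all others, and within each mixed group the highest tumor exceeded the lowest over 30 times (39.9-fold with YAP-SY and 34.7-fold with YAP-S). The log2 fold change in CCA tumors was -3.18 (SE 0.991, adjusted p = 0.0289), 9.05 times lower. It lost its call in 5 of the 6 fits without 1 CCA tumor (-3.45 to -2.78, adjusted p up to 0.0971); the fit without YAP-S CCA tumor 5 kept it. Defining markers of skeletal muscle were at or near 0 in CCA tumors: Pax7 and Myod1 had no count in any of the 6, and 10 muscle markers summed to 0.139 to 1.07 CPM with YAP-SY and 0.454 to 1.17 CPM with YAP-S.

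The promoter sequences of Cdh6 and Cdh15 are shown because these are the 2 of the 8 cadherins that matched the RefSeq promoter table (GRCm38.p6). Each runs over the 250 bases before the annotated start, 5′ to 3′, at chr15:13173676-13173925 on the minus strand for Cdh6 and chr8:122848124-122848373 on the plus strand for Cdh15. Capitals mark matches of either strand to GGGCGG (a GC box) or CACGTG (an E-box).
Cdh6: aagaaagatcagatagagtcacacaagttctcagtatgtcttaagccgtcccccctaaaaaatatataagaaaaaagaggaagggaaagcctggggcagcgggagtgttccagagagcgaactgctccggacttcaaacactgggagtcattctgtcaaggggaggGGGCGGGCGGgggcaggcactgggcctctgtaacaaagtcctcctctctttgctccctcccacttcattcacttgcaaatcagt
Cdh15: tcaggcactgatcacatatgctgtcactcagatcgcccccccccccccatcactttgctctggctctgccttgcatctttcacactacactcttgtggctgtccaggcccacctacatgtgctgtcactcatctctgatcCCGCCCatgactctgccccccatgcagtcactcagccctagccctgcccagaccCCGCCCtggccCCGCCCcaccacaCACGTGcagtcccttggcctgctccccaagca

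The Cdh6 window held 2 GGGCGG matches that overlap each other, and the Cdh15 window held 3, all as CCGCCC, and 1 CACGTG. Of 32536 RefSeq promoter windows of this length, 33% held a GGGCGG and 6.04% a CACGTG. Neither window held CAGGTG, the E-box of Snail and Zeb repressors (17.3% of windows), CAGCTG, an E-box used by myogenic factors (13.1%), or GGAATG, the TEAD element through which YAP reaches DNA (12.6%), with both strands searched. The names of Cdh1, Cdh2, Cdh3, Cdh11, Cdh13 and Cdh17 did not match that table.

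On the mm10 genome of the deposited table, 5 of the 8 cadherins lie on chromosome 8. These are Cdh11 (102632995 to 102785111), Cdh3 (106510913 to 106556908), Cdh1 (106603351 to 106670246), Cdh13 (118283733 to 119324921) and Cdh15 (122848374 to 122867397). Cdh3 ends 46443 bases before Cdh1 starts, and in YAP-SY CCA tumors they were 3.27 and 1.69 times lower. Cdh2 is on chromosome 18, Cdh6 on chromosome 15 (13034200 to 13173639) and Cdh17 on chromosome 4 (11758147 to 11817895). No exon of the 8 overlaps an exon of another gene in GENCODE M21.

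In mixed tumors 0 of the 8 cadherins differed between YAP-SY and YAP-S tumors by edgeR's quasi-likelihood test, where 0% of all tested genes were called. At an unadjusted p under 0.05 there were 2 of the 8, Cdh2 and Cdh15, beside 551 genes or 3.01% of those tested, and the DESeq2 Wald test called 11 genes and none of the 8. Cdh2 had a log2 fold change of 0.31 (SE 0.132, unadjusted p = 0.0365) and Cdh15 of 2.21 (SE 1.01, unadjusted p = 0.0488). Cdh1, Cdh3, Cdh6 and Cdh11 lay between -0.03 and 0.06, with SEs of 0.257 to 0.484, which leaves room for differences either way. Cdh13 (0.35, SE 0.167) was the 1 cadherin whose mixed groups did not overlap, as in 8.35% of genes, and Cdh17 had -0.81 (SE 0.748). With 3 tumors a group and a Cdh15 that varied over 30-fold within each, a difference of several fold in Cdh15 was not detectable here.

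**Figure D2:**
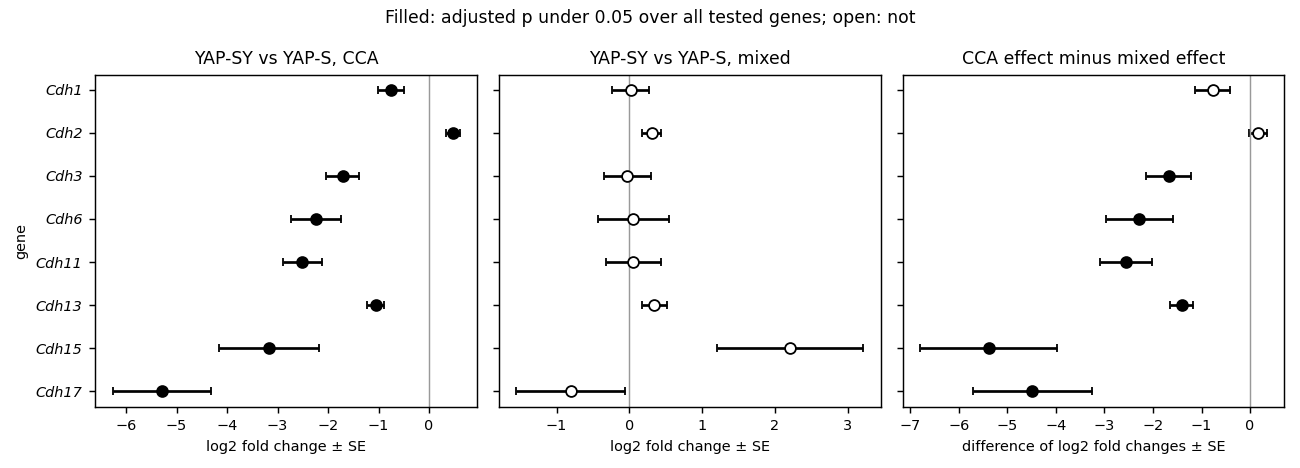
Log2 fold changes of 8 cadherins with their standard errors, from left to right for YAP-SY against YAP-S in CCA tumors, the same in mixed tumors, and the difference of the CCA and mixed effects; filled points passed an adjusted p of 0.05 over all 18318 genes. All 8 points are filled in CCA tumors, none in mixed tumors, and 6 for the difference.

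The effect of YAP-SY itself differed between CCA and mixed tumors for 6 of the 8 cadherins, each more negative in CCA tumors, where the same interaction test called 15.2% of all genes and 10.2% in that direction. Cdh13 had the smallest adjusted p, with a difference of -1.40 (SE 0.236, adjusted p = 0.00475), made up of -1.06 in CCA tumors and 0.35 in mixed tumors. Cdh11 followed with -2.56 (SE 0.542, adjusted p = 0.0118), and both kept their calls in each of the 12 fits without 1 tumor. The differences for Cdh3 (-1.68, adjusted p = 0.0308), Cdh6 (-2.29, 0.0447), Cdh15 (-5.39, 0.0285) and Cdh17 (-4.48, 0.0279) lost their calls in 5, 9, 7 and 3 of those fits. For Cdh3 these left out tumor 3, 4 or 5 of YAP-S CCA, tumor 5 of YAP-SY mixed or tumor 2 of YAP-S mixed; Cdh6 kept its call when tumor 1 of YAP-SY CCA, tumor 3 of YAP-SY mixed or tumor 9 of YAP-S mixed was left out. For Cdh15 they left out tumor 6 of YAP-SY CCA, any tumor of YAP-S CCA, tumor 9 of YAP-SY mixed or tumor 2 or 9 of YAP-S mixed, and for Cdh17 tumor 6 or 8 of YAP-SY CCA or tumor 3 of YAP-S CCA. Their ranges over the 12 fits were -1.95 to -1.38 for Cdh3, -2.93 to -1.94 for Cdh6, -7.19 to -4.29 for Cdh15 and -6.47 to -3.76 for Cdh17. The count of 6 became 3 when tumor 6 of YAP-SY CCA, tumor 4 or 5 of YAP-S CCA or tumor 2 of YAP-S mixed was left out, and 2 when tumor 3 of YAP-S CCA was. It became 4 without tumor 8 of YAP-SY CCA or tumor 5 or 9 of YAP-SY mixed. Only the fits without tumor 1 of YAP-SY CCA or tumor 3 of YAP-SY mixed kept it at 6. For Cdh1 (-0.77, SE 0.363, adjusted p = 0.164) and Cdh2 (0.16, SE 0.187, adjusted p = 0.587) a difference between the histologies was not shown. Both effects that enter this test use the same 12 tumors as the comparisons above. The cadherins were chosen with the YAP-SY differences known, and the CCA difference enters this test. The count of 6 is therefore given as a description of the members.

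When CCA was set against mixed tumors within a model, 0 of the 8 cadherins passed with YAP-SY, where 2.9% of genes did, and 0 of the 8 with YAP-S, where 0% of genes did. With YAP-SY, 5 of the 8 had an unadjusted p under 0.05 (21.6% of genes) and all 8 a negative log2 fold change, from -3.14 for Cdh17 (adjusted p = 0.0857) to -0.05 for Cdh2 (0.846). With YAP-S, 4 of the 8 had an unadjusted p under 0.05 (19.8% of genes), all of them positive: Cdh15 (3.54), Cdh11 (1.55), Cdh13 (0.90) and Cdh3 (0.88), with adjusted p-values of 0.054 to 0.161. Cdh6, Cdh11, Cdh13 and Cdh17 were lower in all YAP-SY CCA tumors than in all YAP-SY mixed tumors, a separation of 20.1% of genes, and Cdh1, Cdh3, Cdh11, Cdh13 and Cdh15 were higher in all YAP-S CCA tumors than in all YAP-S mixed tumors, a separation of 37.8% of genes. The counts of 0 among YAP-S tumors depended on the method: DESeq2, limma-voom, other scaling, no count filter or a fit of these groups alone called 117 to 3609 genes and 1 to 4 of the cadherins there, leaving out 1 tumor called 0, and 3636 genes had an unadjusted p under 0.05. Of these 7 other settings with all tumors, Cdh13 was called in 7, Cdh11 in 6, Cdh15 in 4 and Cdh3 in 2.

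Ordered by mean level, YAP-S CCA tumors came first for every cadherin except Cdh2, for which they came last. For Cdh3, Cdh11, Cdh13 and Cdh15 this first place was clear of the next group's range, while for Cdh1, Cdh6 and Cdh17 the ranges overlapped. YAP-SY CCA tumors came last for Cdh1, Cdh3, Cdh6, Cdh11, Cdh13 and Cdh17. The mixed groups stood next to each other in the middle for Cdh1, Cdh3, Cdh6, Cdh11, Cdh13 and Cdh17, and among these only Cdh13 had mixed groups whose ranges did not overlap.

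Levels of different genes can be compared only per length, here as CPM per kilobase of the deposited gene length. On that scale Cdh1 averaged 25.7 in YAP-SY CCA tumors and 43.4 in YAP-S CCA tumors, and Cdh2 averaged 14.99 in YAP-SY CCA tumors and 10.8 in YAP-S CCA tumors. Each of the other 6 averaged under 7.3 in every tumor group. Cdh1 and Cdh2 together made up 90.6% to 95.1% of the summed per-length level of the 8 cadherins in YAP-SY CCA tumors, against 76.1% to 81.2% in YAP-S CCA tumors. The share was 80.6% to 88.3% in YAP-SY mixed tumors and 81.9% to 92.3% in YAP-S mixed tumors. These shares lean on the deposited gene lengths, which for Cdh6 (2632 bases) and Cdh11 (4216) are shorter than their exonic bases in GENCODE M21 (9024 and 8904).

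The ratio of Cdh1 to Cdh2 within a library, which does not change with library scaling, was 2.02, 1.26 and 1.91 per length in YAP-SY CCA tumors, against 3.63, 3.87 and 4.64 in YAP-S CCA tumors. Mixed tumors had 1.71, 3.21 and 1.72 with YAP-SY, against 2.64, 2.93 and 2.71 with YAP-S. The CCA groups were separate and all YAP-S CCA tumors exceeded all other tumors, whereas YAP-SY mixed tumor 5, the tumor with the highest Cdh1, placed its group on both sides of the YAP-S mixed tumors. Per deposited length (4574 bases for Cdh1 and 8066 for Cdh2), E-cadherin RNA was above N-cadherin RNA in every tumor. In CPM without length, Cdh1 was below Cdh2 in YAP-SY CCA tumor 6 (91.7 against 128.6). The same held in YAP-SY mixed tumors 3 (131.1 against 135.5) and 9 (103.6 against 106.3). A ratio shows unequal change and not which gene changed.

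**Figure D3:**
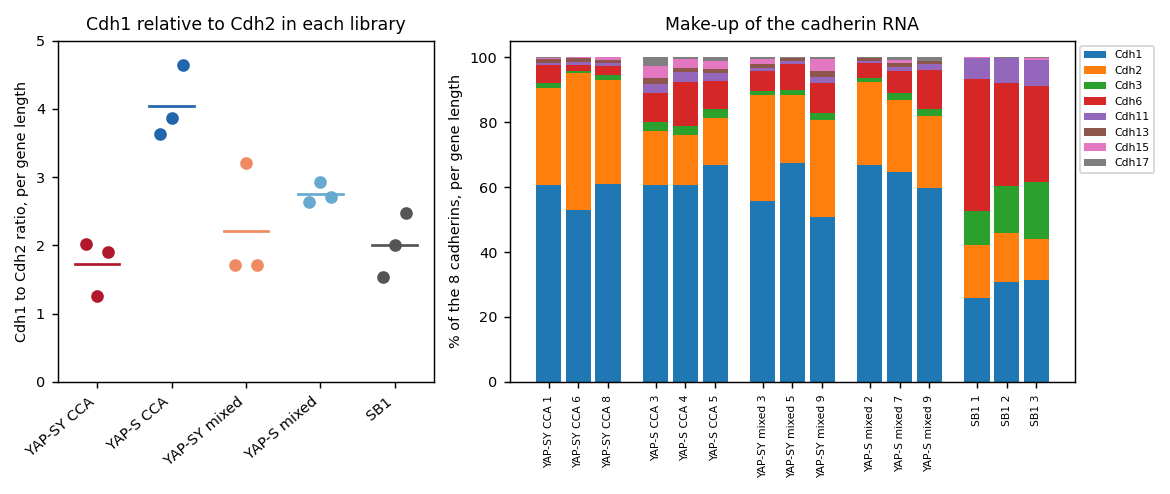
Left, ratio of Cdh1 to Cdh2 per gene length in each tumor or SB1 sample, with lines at group means; right, share of each cadherin in the summed per-length level of the 8, in percent. YAP-SY CCA tumors have ratios of 1.26 to 2.02 and YAP-S CCA tumors 3.63 to 4.64, and Cdh6 takes 29.4% to 40.7% in SB1 samples.

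SB1 cells were described without a test, because their counts were deposited in a separate table and scaled by library size alone. Their mean levels were 219 ± 28.5 CPM for Cdh1, 196 ± 26.6 for Cdh2, 91.6 ± 27.4 for Cdh3, 146 ± 30.7 for Cdh6 and 50.7 ± 7.24 for Cdh11 (SD, n = 3 each). For Cdh3, Cdh6 and Cdh11 even the lowest SB1 sample (69.7, 123 and 45.3 CPM) lay above the highest tumor (8.08, 26.3 and 9.30 CPM). Cdh13 had 0 counts in each of the 3 samples, which allows up to 0.0982 to 0.118 CPM, whereas every tumor had 5.34 CPM or more. Cdh15 was at 0.950, 0.671 and 2.47 CPM and Cdh17 at 0.491, 1.46 and 2.93 CPM, both within the range of the tumors. The intestinal marker Cdx2, at 0 in every tumor, averaged 2.69 CPM in SB1. Cdh1 and Cdh2 together gave 42.3% to 46% of the per-length cadherin level in SB1, and the Cdh1 to Cdh2 ratio was 1.54, 2 and 2.48. The SB1 samples held 767 to 1301 CPM of hepatocyte markers and 0.851 to 1.41 CPM of endothelial markers. The hepatocyte sum was mostly Alb (779), with Fgb at 79, Hnf4a at 54.8, Ttr at 21, Apoa1 at 11.2 and Apob at 4.4 CPM. Cps1, Cyp2e1, Asgr1 and Tat averaged 0.237, 0.243, 0.640 and 0.438 CPM. Their cholangiocyte sum was 2539 to 2957 CPM, mostly Krt19 (1429) and Spp1 (905), while Epcam averaged 0.235 CPM. Their fibroblast and stellate sum was 476 to 636 CPM, mostly Dcn (245), Col1a1 (117) and Col3a1 (71.9). Of the same list Pdgfrb, Pdgfra and Acta2 averaged 63.7, 15.8 and 13.1 CPM. Col1a2, Postn and Des averaged 3.39, 0.754 and 0.686 CPM, and Lum and Lrat had no count in any SB1 sample.

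Further genes of cell adhesion were counted in lists in CCA tumors, YAP-SY against YAP-S. Among all tested genes 20.8% were called lower and 18.3% higher in this comparison. Since the lists were chosen with earlier results known, nothing is read from their counts, here or in the next 3 paragraphs. Of 15 other Cdh genes 6 were tested and 2 fell, while 4 did not pass. Cdh5, the VE-cadherin of endothelium, averaged 51.6 CPM with YAP-SY and 69.7 CPM with YAP-S (log2 fold change -0.43, adjusted p = 0.0122 in edgeR). The summed level of 9 endothelial markers, Cdh5 included, was 401 to 503 CPM with YAP-SY and 307 to 427 CPM with YAP-S. That list was split: 3 of the 9 were called lower (Cdh5, Vwf at -1.62 and Emcn at -0.56). Another 2 were called higher (Kdr at 0.55 and Clec4g at 0.77), and 4 did not pass. The second of the Cdh genes that fell was the type II cadherin Cdh24 (0.605 CPM with YAP-SY and 3.39 CPM with YAP-S, -2.47). Cdh24 is named here after its values were seen because it lies under 5 CPM. None of the 5 tested desmosomal cadherins of 9 passed: Dsg2, the most abundant, averaged 270 CPM with YAP-SY and 285 CPM with YAP-S (-0.08), and Dsc2 averaged 97.8 CPM with YAP-SY and 69.2 CPM with YAP-S (0.50, adjusted p = 0.06).

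Large cadherins of planar polarity fell in 5 of 7 tested of 9, with no rise, and their median was -1.19. Celsr2, a flamingo-type cadherin of planar cell polarity, averaged 2.97 ± 1.44 CPM in YAP-SY CCA tumors and 18.2 ± 2.29 CPM in YAP-S CCA tumors (SD, n = 3 each; log2 fold change -2.61, adjusted p = 0.000496 in edgeR). Its relative Celsr1 averaged 25.7 CPM with YAP-SY and 51.6 CPM with YAP-S (-1.004). Dchs1 and Fat1, related to the fly Hippo regulators Dachsous and Fat, fell by 1.19 and 0.63 on the log2 scale. Fat4, the partner of Dchs1, averaged 7.72 CPM with YAP-SY and 10.8 CPM with YAP-S and did not pass.

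Of 21 catenin and junction plaque genes 20 were tested, of which 7 fell, 3 rose and 10 did not pass (median -0.30). The common catenins Ctnnb1, Ctnnd1 and Ctnna1 were among those that did not pass, at -0.19, -0.25 and -0.17. Ctnna2, the neural alpha-catenin, fell 13.2-fold (1.15 CPM with YAP-SY and 15.3 CPM with YAP-S, log2 fold change -3.73, adjusted p = 0.000191), and it was also lower in YAP-SY CCA than in YAP-SY mixed tumors (-2.34, adjusted p = 0.0234), a call that was lost in limma-voom with quality weights or the replicate block, with only these groups in the fit, and without YAP-SY CCA tumor 6 (-1.99) or 8 (-2.35) or YAP-SY mixed tumor 5 (-2.30). Arvcf (-1.11), a p120-catenin relative, Jup (-0.88), which is plakoglobin, and Nectin2 (-0.80), an immunoglobulin-type adhesion molecule, also fell. Nectin3 (0.81), Pkp2 (0.56) and Pkp4 (0.47), of which the last pair are plakophilins, rose, but with library size alone Nectin3 had 0.24 and no call, and Pkp2 and Pkp4 turned to -0.02 and -0.10. The call of Pkp2 needed tumor 5 of YAP-S CCA (0.51 when it was left out), and that of Pkp4 needed tumor 1 of YAP-SY CCA (0.28) and tumors 3 (0.41) and 4 (0.42) of YAP-S CCA. Pkp4 also lost its call with no count filter (0.45, adjusted p = 0.0618), with quality weights (0.27, 0.116) and with only the groups compared in the fit (0.48, 0.0752).

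Of 12 cadherin proteases and turnover genes 6 fell, 1 rose and 5 did not pass (median -0.50). Mmp14, a membrane-bound matrix metalloproteinase, averaged 50.8 ± 15.1 CPM in YAP-SY CCA tumors and 148 ± 1.63 CPM in YAP-S CCA tumors (SD, n = 3 each; -1.55, adjusted p = 0.00039 in edgeR). Adam15 (-1.98) and Adam17 (-0.58), membrane proteases that can cut cadherins, fell. Adam10 (-0.45), the main sheddase of E- and N-cadherin, passed with all tumors but in none of the 6 fits without 1 CCA tumor (-0.49 to -0.40). Numb, an endocytic adaptor, rose (0.58), though with library size alone its log2 fold change was 0.02.

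Of 23 transcription factors and splicing regulators tied to cadherins 20 were tested, with 6 lower, 2 higher and 12 that did not pass (median -0.20). Hnf4a, a hepatocyte factor that activates epithelial genes, rose to 723 ± 113 CPM in YAP-SY CCA tumors, against 340 ± 55.8 CPM in YAP-S CCA tumors (SD, n = 3 each; 1.09, adjusted p = 0.00143 in edgeR). Esrp2, an epithelial splicing regulator, rose as well (0.75; 0.19 and no call with library size alone). Among E-cadherin repressors, Zeb2 (-0.66) and Tcf3 (-1.15), whose product is the E2A protein, fell, but Tcf3 had no call when tumor 6 of YAP-SY CCA was left out (-0.89, adjusted p = 0.0627). Snai2 and Twist1 did not pass, and Zeb1 had 0.28 (adjusted p = 0.0815). Another 3 genes that fell were low in counts and are named after their values were seen. Snai1, which encodes Snail, averaged 0.567 CPM in YAP-SY CCA tumors and 2.09 CPM in YAP-S CCA tumors (-1.86, adjusted p = 0.0346 in edgeR). Twist2 averaged 0.0093 CPM with YAP-SY, where 2 of 3 tumors had no count, and 0.449 CPM with YAP-S (adjusted p = 0.00826 in edgeR). Foxc2, a forkhead factor, had no count in the 3 YAP-SY CCA tumors and averaged 0.422 CPM in YAP-S CCA tumors (adjusted p = 0.000986 in edgeR). Klf4 (-1.76), an epithelial factor, also fell. In mixed tumors, none of the genes in these 6 lists passed.

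Genes whose log2 CPM followed a cadherin most closely over the 12 tumors were sought among 10441 tested genes with a mean of 5 CPM or more. Correlations over 12 tumors in 4 groups share group differences and scaling, so the r of deviations from group means is given second. Cdh1 was nearest to Apobec1, Fam105a and Stt3b (r = 0.97, 0.96 and 0.96; within groups 0.97, 0.93 and 0.94). Cdh2 was nearest to Rnd3, Daam1 and Zfp369 (0.98, 0.95 and 0.94; within groups 0.91, 0.83 and 0.90). Cdh3 was nearest to Hid1, Ppp1r9b and Clic1 (0.99 for each; within groups 0.97, 0.97 and 0.99).

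For the type II cadherins, Cdh6 was nearest to Hkdc1, Gas8 and Syt12 (0.97 for each; within groups 0.96, 0.95 and 0.95) and Cdh11 to Vcam1, Crim1 and Nfkbiz (0.98, 0.97 and 0.97; within groups 0.94, 0.92 and 0.93). Cdh13 was nearest to Runx1, Nes and Arl4c (0.96, 0.95 and 0.95), with within-group values of 0.82, 0.80 and 0.66. Cdh17 was nearest to Mum1l1, Sprr1a and Ier3 (0.98, 0.98 and 0.97; within groups 0.94, 0.92 and 0.91). Over the 12 tumors Cdh15 had the least close neighbours, Snx18, Pacsin2 and Adamts7 at 0.88, 0.88 and 0.86, with within-group values of 0.745, 0.845 and 0.789. Among the cadherins themselves the closest pair was Cdh3 and Cdh6 (0.94; within groups 0.90), while Cdh1 and Cdh2 had -0.38 over the tumors and 0.35 within groups.

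**Figure D4:**
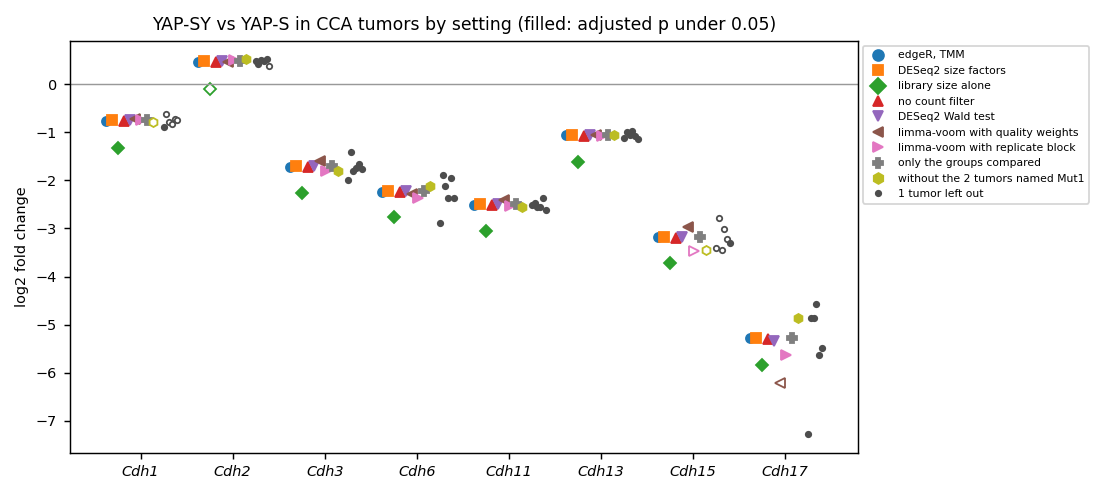
Log2 fold change of each cadherin for YAP-SY against YAP-S in CCA tumors under the edgeR test with TMM scaling and each other setting, and with 1 CCA tumor left out at a time; filled symbols passed an adjusted p of 0.05. Cdh3, Cdh6, Cdh11 and Cdh13 are filled throughout, Cdh2 falls to -0.09 under library size alone, and most of the 6 leave-out points of Cdh1 and Cdh15 are open.

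Across these settings Cdh3, Cdh6, Cdh11 and Cdh13 stayed below 0 with an adjusted p under 0.05, as the plot by setting shows. Cdh1 and Cdh15 also lost their calls without the pair of YAP-SY tumors whose description begins with Mut1 in place of Mutant, at -0.79 (adjusted p = 0.0672) and -3.45 (adjusted p = 0.0696). The labels do not say what that prefix marks.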

How the data were processed

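RNA was sequenced from 12 tumors, 3 SB1 samples and 3 SY1 samples; SY1 was not analysed here, and 3 columns of the cell line table whose names match no label were not used. The authors deposited gene counts for the tumors as a corrected table, what was corrected not being given in the sources used here, and raw counts for SB1. Per the submitters' processing notes, STAR and mm10 were used. Coordinates and lengths are those of the deposited table.

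From these counts, genes with low counts were removed (filterByExpr by group), libraries were scaled by TMM, and all 12 tumors entered 1 fit with 4 groups in edgeR 4.0.16 (R 4.3.3), with quasi-likelihood F-tests, a Benjamini-Hochberg adjusted p over 18318 genes and a threshold of 0.05. SB1 CPM used plain library size. Checked alternatives used DESeq2 1.42.0, limma 3.58.1, other scaling and filters, and left out each tumor. Log2 CPM used a prior count of 1. A limit for a count of 0 is 3 counts and covers counting error only.

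The 8 cadherins, the gene lists and the tests were chosen with earlier results of these data known. Named were the 8, the up to 4 largest rises and 4 largest falls per adhesion list with 5 CPM or more in the higher group (2 and 2 outside the CCA comparison of the models), and the 3 genes most like each cadherin; others given as not passing are list members named for their function.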

Additional observations from a re-analysis of the deposited data

Results flagged for a closer look

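For 6 cadherins the effect of YAP-SY differed between CCA and mixed tumors by the test of the difference itself (edgeR, adjusted over all genes, 3 tumors in each of the 4 groups). The same test called 15.2% of all genes, and 10.2% with a more negative effect in CCA tumors. The cadherins were chosen with the YAP-SY differences known, and the CCA difference enters this test. Nothing is therefore read from the count of 6. The log2 effect in CCA tumors minus that in mixed tumors was -1.68 for Cdh3 (adjusted p = 0.0308), -2.29 for Cdh6 (0.0447), -2.56 for Cdh11 (0.0118), -1.40 for Cdh13 (0.00475), -5.39 for Cdh15 (0.0285) and -4.48 for Cdh17 (0.0279). All 3 YAP-SY CCA tumors lay below all 3 YAP-S CCA tumors for each of the 6. In this comparison 52.6% of all genes had groups that did not overlap, in either direction. Cdh6 and Cdh17 lost this call in limma-voom with quality weights (-2.16, adjusted p = 0.0532, and -5.87, 0.138) and without the Mut1 tumors (-2.38, 0.0635, and -4.05, 0.0641). In mixed tumors the groups overlapped for 5 of them, and for Cdh13 all 3 YAP-SY mixed tumors lay above all 3 YAP-S mixed tumors. Marker sums that differed between the CCA groups differed less between the mixed groups: fibroblast and stellate markers summed to 693 to 1029 CPM in YAP-SY mixed tumors, against 855 to 1120 CPM in YAP-S mixed tumors, and hepatocyte markers to 88040 to 116100 CPM with YAP-SY and 83540 to 91380 CPM with YAP-S. Their part in the 6 differences was not tested.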

How the results depend on the processing

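In CCA tumors YAP-SY against YAP-S called 8 cadherins; 6 to 7 were called without 1 tumor, with 5121 to 6869 genes against 7171. For the difference between histologies the 12 fits without 1 tumor called 2 to 6 cadherins and 1058 to 3077 genes (2788 with all; 1058 and 1564 without YAP-S mixed tumor 2 or 9, 1744 and 1323 without YAP-S CCA tumor 4 or 5, 1749 without YAP-SY mixed tumor 5), library size alone 4330 genes and the DESeq2 Wald test 4231. The difference was called for 4 cadherins with quality weights and 4 without the Mut1 tumors (Cdh6 and Cdh17 lost in both), and 7 with library size alone (Cdh1 gained, -1.31, adjusted p = 0.0383). In mixed tumors these fits called 0 to 0 genes and cadherins, and the Wald test 11 genes. CCA against mixed with YAP-SY gave 532 genes with all tumors and 0 to 595 without 1 (109, 0 and 319 without YAP-SY CCA tumor 1, 6 or 8, and 113 without YAP-SY mixed tumor 5); other settings gave 2006 (library size alone), 859 (no count filter), 1834 (Wald), 16 (quality weights), 46 (replicate block) and 0 (only the groups compared), and 3, 2 and 3 cadherins under the first 3 of these. With YAP-S, fits without 1 tumor gave 0 to 0 genes and cadherins; DESeq2 size factors gave 117 genes and 1 cadherin, library size alone 711 and 2, no count filter 570 and 3, the Wald test 1513 and 3, quality weights 3609 and 4, the replicate block 991 and 2 and only the groups compared 2393 and 4.

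With library size alone all genes had a median of -0.56 in CCA tumors, with 760 genes higher and 8064 lower (3358 and 3813 under TMM). It turned Cdh2 (-0.09), Pkp2 (-0.02) and Pkp4 (-0.10) there, Cdh1 in mixed tumors (-0.01), the Cdh2 difference (-0.35) and Cdh2 in CCA against mixed with YAP-S (0). Effects near 0 in mixed tumors turned sign elsewhere: Cdh1 to -0.22, Cdh6 to -0.13 and Cdh11 to -0.16 with quality weights; Cdh1 to -0.12 and Cdh3 to 0.03 with the replicate block; Cdh3 to 0.16 without the Mut1 tumors. Without 1 tumor they ran from -0.43 to 0.25 for Cdh1, -0.24 to 0.16 for Cdh3, -0.27 to 0.63 for Cdh6 and -0.31 to 0.52 for Cdh11. In CCA against mixed with YAP-SY, Cdh2 became 0.05 without the Mut1 tumors, and without 1 tumor Cdh1 ran from -0.68 to 0 and Cdh2 from -0.16 to 0.01. The causes were not tested.

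Tumor numbers 3, 5 and 9 occur in both models, with correlations of 0.09 to 0.35 between same-numbered tumors and -0.47 to 0.29 between the 51 other pairs, and 3 of 6 tumors correlated best with their own number. With the number as a replicate block 7 cadherins and 7126 genes were called in CCA tumors (Cdh15 lost, -3.47, adjusted p = 0.0624), 0 in mixed tumors, and 4 cadherins and 2986 genes for the difference (Cdh15 at -5.90 and Cdh17 at -5.33 lost). Depth limits Cdh15 and Cdh17, with 1 to 823 counts a tumor.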
